A study of Mus musculus with 16 samples.

Results

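Of 760105 regions of open chromatin found in any of 8 mouse tissues under fed or fasting conditions, 4453 were open in all 16 libraries and lay far from every annotated transcription start. Regions with a q-value of at most 0.01 were merged across the libraries wherever they overlapped by 1 bp or more. A merged region was a member when every library held such a region inside it and its strongest summit was over 10 kb from every GENCODE vM21 start. In all, 23371 merged regions were open in every library, and the other 18918 of them, with the summit at most 10 kb from a start, are called proximal below. Merged regions over 10 kb from a start numbered 376610 in any library. Members were thus chosen by the q-value in each library and by the distance of the summit from a start, the summit being picked by p-value, so these are given only as a description.

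ATAC-seq marks open chromatin by the places where the Tn5 transposase can insert sequencing adapters into DNA. Open chromatin far from a start often marks an enhancer, which acts on a gene at a distance, or an insulator, which separates neighbouring domains. Enhancers are commonly active in few cell types, whereas many insulator sites are occupied in most cells by CTCF, a zinc-finger protein. CTCF binds a long, directional sequence and halts the cohesin complex as it extrudes a chromatin loop, and loops tend to form between motifs that point towards each other.

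The libraries were made from the Liver, Muscle, Brown_Adipose, White_Adipose, Spleen, Heart, Lung and Kidney of male C57BL/6 mice. All were of this strain and sex, and they were either Fed, with free access to food, or Fasting. There was 1 library for each tissue and state, made from tissue powder pooled from several mice, so the groups have no replicates. All tissues of a state came from the same mice, and p-values below speak only of these pools.

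Many members held a recognisable sequence near the summit. A core CTCF motif, made of the letters CCA, AG and GGC in this order with any pair of bases between one and the next, occurred on either strand within 100 bp of the strongest summit in 1395 members, or 31.3% (95% exact binomial interval 29.97% to 32.7%, counting error only). The same window held it in 2.42% of all merged distal regions and in 2.70% of all merged regions. The members with this motif that ranked highest over the libraries are shown first, 30 bases each on GRCm38. Each was read 5′ to 3′ on the strand of its motif from the RefSeq GRCm38.p6 genome, and the capitals mark the 12 bases that matched.
near Ccne1, chr7:38085024-38085053, plus strand: gcgaggaagCCACGAGGAGGCccaaagtcc
near Phlda3, chr1:135753081-135753110, minus strand: cctgcatggCCAGCAGAGGGCagcctgtct
near Wee1, chr7:110164968-110164997, plus strand: cgagcgttcCCAGCAGAGGGCactcacaga
near Tnfrsf14, chr4:154944487-154944516, plus strand: tcctttgagCCACTAGAGGGCagcaaaatc
near Tef, chr15:81831548-81831577, plus strand: gccattccaCCAGTAGGTGGCgggcgattc
near Zxdb, chrX:94865724-94865753, plus strand: gctgtcccaCCACTAGGGGGCccccgcagc
inside Zfp185, chrX:73008316-73008345, plus strand: tagctccagCCACGAGATGGCgctggagga
near Fos, chr12:85485982-85486011, plus strand: cagacagcaCCAGGAGCCGGCcagtcctct
near Hps6, chr19:46014764-46014793, minus strand: aagagatgcCCACCAGGAGGCgccagtgcc
near Arhgef26, chr3:62159367-62159396, plus strand: tccagtgctCCAGCAGCAGGCgcagggggt
inside Gse1, chr8:120319687-120319716, plus strand: ccctccctgCCACCAGAGGGCgcaggagtg

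The last of these belongs to the largest run of neighbouring members, described below, and the gene named is the nearest protein-coding gene or the gene that holds the summit. Over all 1395 members the open positions of the motif were not filled evenly. The fourth position of the motif was C in 57.8% and G in 37.6%, and the eighth was G in 52.3% and A in 46.2%. The ninth was G in 53.0% and T in 42.7%. The base after the motif was A in 57.8%, and the third base before it, outside the letters searched, was T in 48.2%. A match of letters is a description and does not show that CTCF was bound.

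Before the ranks are given, some members need to be named for what their sequence shares with other places. In 6 members the sequence matched the mitochondrial genome, as nuclear copies of mitochondrial DNA do, and these held places 1, 2, 4, 5 and 12 by mean rank, with the other at place 478. The highest of all, chr12:97061404-97061822, an intergenic region 40727 bp from the start of Gm47397, matched mitochondrial DNA at 99.7% identity over 365 bp. The authors removed mitochondrial reads, and whether mitochondrial DNA contributed to these regions was not tested. A further property was the number of copies: the summit windows of 94 members had 2 or more copies in the nuclear genome at 90% identity or higher. Without the members of either kind 4358 remained, 31.4% of them with the CTCF motif.

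Ranks place a region within its own library, from 0 for absent to 100 for the smallest p-value in the deposited list. The median rank of the members ran from 75.7 in fed brown adipose to 89.2 in fed spleen, and that of proximal regions from 91.0 to 94.5. Members were therefore well above the middle of every list but below proximal regions in each of the 16 libraries. The q-value that chose both groups goes with the p-value that gives the rank, so these levels are a description. Only 144 members (3.23%) had a rank of at least 90 in every library, 2786 (62.6%) had at least 50 in every library, and 370 fell under 20 in 1 or more. Openness in all libraries did not mean equal strength in all of them. Fold enrichment over the expected tags, as the median of the 16 libraries, had a median of 6.79 over members (range 2.59 to 83.6) and 8.70 over proximal regions. A library's depth, list length and set size were not equal between samples: background tags, the expected number at most places of the genome and proportional to depth, ranged from 2.80 in fed liver to 12.8 in fed brown adipose, and distinct regions from 149835 to 239804. Fed brown adipose thus had the most background tags, the shortest list and the lowest median rank, and the part of depth in the ranks was not tested.

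**Figure D1:**
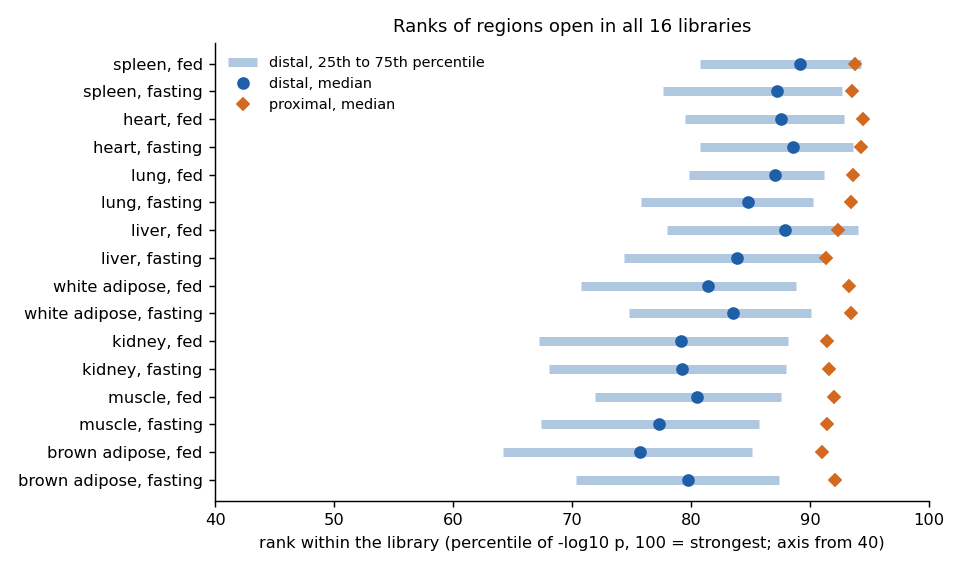
Rank of regions open in all 16 libraries, 1 line per library, on an axis from 40 to 100. Blue points are medians of the 4453 distal regions, pale bars their 25th to 75th percentiles and orange diamonds medians of the 18918 proximal regions; the distal medians, 75.7 to 89.2, lie below the proximal medians, 91.0 to 94.5, in every library.

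As a check of labels, defining genes of the tissues were looked up within 3000 bp of its starts. The strongest region ranked highest in the labelled tissue for Alb, Ckm, Ucp1, Myh6 and Umod. The margin over the highest other tissue was wide for Alb (86.1 against 24.8), Ucp1 (90.9 against 47.8) and Umod (91.8 against 12.5). It was narrow for Ckm (95.4 against 94.2) and Myh6 (83.8 against 78.1). For Adipoq it ranked 87.4 in white adipose and 93.4 in liver, and for Sftpc 84.7 in lung and 96.4 in heart, so these genes did not single out their tissues.

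The members lay mainly outside exons, a description only, since other distal regions were not annotated in this way. The summit was intergenic in 2332 (52.4%) and intronic in 1965 (44.1%), and it fell in a coding exon in 44, a UTR exon in 77 and another non-coding exon in 35. Distance to the nearest start had a median of 19376 bp, with 2321 members between 10 and 20 kb, 365 between 50 and 100 kb and 65 beyond 100 kb. Another annotation placed starts at some of them: 229 members (5.14%) were within 1 kb of a RefSeq start, and 17.03% of these held the CTCF motif against 32.1% of the others. An example is chr15:85634125-85635440, at place 7 by mean rank, with a GC content of 72.1% and the RefSeq start of D130051D11Rik 5 bp from its summit.

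At the limit itself, the members just inside were chr5:24266289-24267245, 10003 bp from a start of Gm9836 with ranks of 87.9 to 98.1, and chr5:148332348-148333200, 10006 bp from a start of Slc7a1, an amino acid transporter, with ranks of 77.0 to 97.6. Just outside were chr7:97748169-97748530, 9999 bp from Aqp11, a water channel, with ranks of 81.7 to 94.7, and chr10:116330514-116330764, 9991 bp from Gm26495, with ranks of 76.1 to 93.5. The ranks overlapped across the limit. The member furthest from any start was chrX:87238325-87238451, in an intron of Il1rapl1, 435485 bp from Gm8855. It was also the narrowest member at 127 bp, and its rank ran from 76.3 to 99.5 with a median of 92.0.

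Members were spread over all chromosomes but not evenly. Among autosomes there were most per Mb on chromosome 11 (2.63) and fewest on chromosome 3 (1.17). The X chromosome had 63 members, or 0.368 per Mb, and the Y chromosome 9, or 0.0981 per Mb. Proximal regions were also most dense on chromosome 11, at 12.98 per Mb, with 2.34 per Mb on the X chromosome. None of the 9 members on the Y chromosome had the CTCF motif.

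Spacing was broad with a tail of close neighbours. The gap between neighbouring members had a median of 178 kb, and 1096 of 4432 gaps (24.7%) were under 50 kb and 297 under 5 kb. When members with gaps under 50 kb were joined, 2583 stood alone, 563 pairs formed and 744 members were in runs of 3 or more. The closest neighbours were chr8:126825743-126826228 and chr8:126826257-126827355, 0.028 kb apart in an intron of Gm31718. They did not rank alike: in fasting spleen the first stood at 3.69 and the second at 49.4, while in fed brown adipose they stood at 66.3 and 90.6.

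The largest run had 11 members, all in introns of Gse1, a gene for a partner of histone-modifying co-repressor complexes, between chr8:120264617-120265958 and chr8:120416124-120417559. Median ranks in this run went from 68.4 at chr8:120363532-120364711 to 95.8 at chr8:120368659-120369484, the next member along. The last named had a rank of at least 93.4 in every library. Widths in the run ranged from 236 to 2117 bp. Of the 11, only chr8:120319301-120319961 had the CTCF motif, printed above, and its ranks ran from 86.3 to 99.6.

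Loci known for insulators or domain boundaries did not all have a member nearby. Of 16 such genes, 9 had at least 1 member within 250 kb, as did 59.4% of all 21938 protein-coding genes, so the count says nothing particular of these loci. Hoxc13, of a homeobox cluster, and Ihh, a hedgehog ligand, had 4 each, and Kcnq1ot1, an imprinted non-coding RNA, Hba-a1, an alpha globin, and Hoxb13 had 2 each. Xist, Shh, Pax3 and Runx1 had 1 each. H19, Hbb-bt, Hoxa13, Hoxd13, Firre, Sox9 and Epha4 had no member within 250 kb. The nearest to H19 was chr7:142918564-142919717, in an intron of Th, the tyrosine hydroxylase gene, 341303 bp away. Elements of these loci that lie within 10 kb of a start are left out by the rule.

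Members were narrower than proximal regions open in all libraries. Their merged width had a median of 699 bp, with a range of 127 to 3166 bp, while the median of proximal regions was 1113 bp. Within a library the summed width at a member had a median of 231 bp in fed liver to 476 bp in fed lung. Members with the CTCF motif had a median merged width of 593 bp and the others 774 bp. The widest member was chr7:107664051-107667216, in an intron of Ppfibp2, a gene for a liprin-family protein, with a RefSeq start of that gene 172 bp away. Its best summits lay up to 1778 bp from the strongest summit, and its rank ran from 49.6 to 95.1.

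A merged region can join separate places of openness, so the best summits of the libraries were compared. The greatest distance between a library's summit and the strongest one had a median of 83.0 bp, and it was within 250 bp in every library for 3491 members (78.4%). It had a median of 62.0 bp in members with the CTCF motif and 100 bp in the others. Among the 3491 with close summits, 36.8% held the CTCF motif.

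The share with the CTCF motif went up with the number of libraries that held a distal region. It was 1.22% of regions in 1 library, 9.61% in 12, 13.8% in 14, 19.7% in 15 and 31.3% in all 16. The only step down was from 3.62% in 5 libraries to 3.31% in 6. Proximal regions had 15.3% in 15 libraries and 13.3% in 16. Up to 14 libraries the distal and proximal shares differed by at most 2.27 percentage points, and at 16 libraries by 18. Regions in few libraries are also narrower, with a median width of 99.0 bp for distal regions in 1 library, and less strongly ranked; their part in the shares was not tested.

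**Figure D2:**
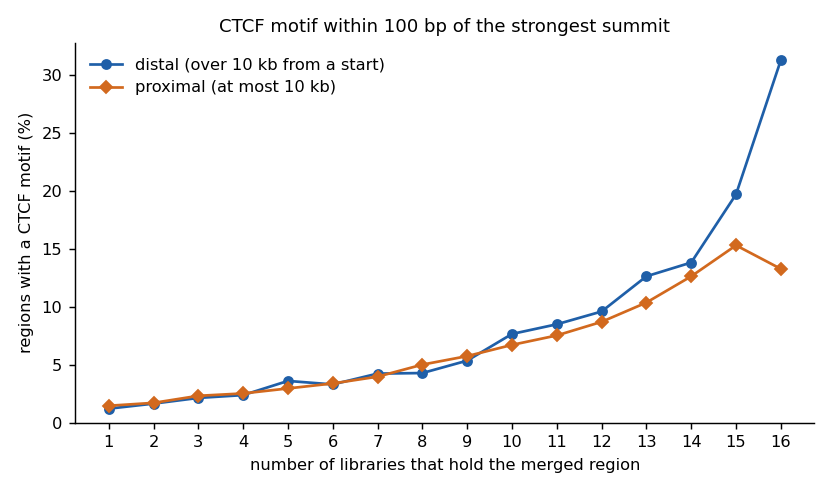
Share of merged regions with the core CTCF motif within 100 bp of the strongest summit (vertical axis, percent) by the number of libraries that held the region (horizontal axis), for distal (blue) and proximal (orange) regions. The distal share goes from 1.22% in 1 library to 31.3% in 16, while the proximal share is 15.3% at 15 and 13.3% at 16.

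Within the members, the CTCF motif was not concentrated among the strongest. In 4 equal groups from the lowest to the highest mean rank its share was 27.9%, 35.04%, 34.1% and 28.2%. A stricter form of the motif, with C after CCA and G after AG, was present in 444 members (9.97%) and in 0.379% of all distal regions. The median GC content of the windows searched was 52.2% in members, 48.8% in all distal regions and 61.2% in proximal regions.

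Other motifs were searched in the same windows on both strands, and each share is given beside those of all distal regions and of proximal regions open in all libraries. GGGCGG, bound by SP and KLF factors that are common at promoters, was found in 11.7% of members, 3.43% of all distal and 45.9% of proximal regions. CCGGAA, of the ETS family, was found in 5.03%, 2.20% and 15.9%, and the palindromic motif of NRF1, a regulator of mitochondrial genes, in 0.651%, 0.0903% and 5.54%. These promoter-associated motifs were more frequent in members than in distal regions as a whole and less frequent than near starts. TGANTCA, of AP-1, was found in 7.28%, 7.51% and 4.10%, and AGATAA, of GATA factors, in 6.62%, 8.80% and 3.43%. By number of libraries, the AP-1 share of distal regions was 6.75% in 1, 10.6% in 10 and 9.35% in 15. CCAAT, of NFY, was found in 20.01%, 22.7% and 25.3%.

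The remaining motifs were sparse. The paired sites of NFI were found in 1.32%, 0.799% and 0.809%, in the same order. CACGTG, an E-box, was found in 3.39%, 3.06% and 5.63%, AANATGGC, of YY1, in 3.03%, 3.02% and 4.81%, and ACTACAA, of ZNF143, in 1.73%, 1.79% and 2.80%. TGACGTCA, of CREB and ATF, was found in 18 members, that of RFX in 8, the paired sites of the glucocorticoid receptor in 29 and the direct repeat of nuclear receptor dimers in 1. For the glucocorticoid receptor motif the shares were 0.651%, 0.746% and 0.412%. None of the 14 other motifs reached the CTCF motif's ratio of members to all distal regions.

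The CTCF motif sat at preferred distances from the summit. Its centre was within 20 bp of the strongest summit in 550 of 1395 members (39.4%), 20 to 40 bp away in 302, 40 to 60 bp away in 445 (31.9%) and further in 98. The distances thus had a central mode and a mode on either side of it. Summits 40 to 60 bp from the motif were on its 3′ side in 60.4% of cases, and those further away in 76.5%. The motif was on the plus strand in 685 members (49.1%). Of the sequences printed above, that near Fos had its motif centre 4.5 bp before the summit in genome order, while that near Ccne1 had it 67.5 bp after. Both have a ninth base that is rare among the matches.

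**Figure D3:**
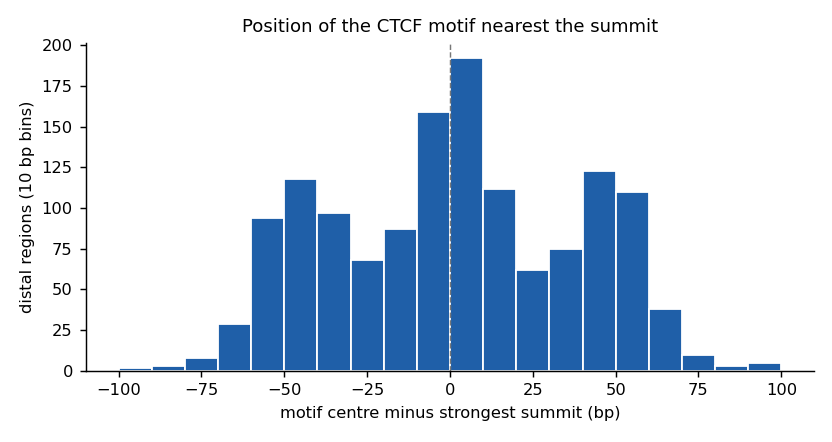
Distance from the strongest summit to the centre of the nearest CTCF motif (bp, 10 bp bins, 0 at the dashed line) in the 1395 distal regions with the motif. The counts form a central mode, with 550 regions within 20 bp, and a mode on each side, with 445 regions at 40 to 60 bp.

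Neighbouring members with the CTCF motif were paired by order along a chromosome, and their strands compared. Of 1375 pairs, 371 (27.0%) were convergent, pointing towards each other, 363 (26.4%) divergent and 641 (46.6%) tandem on the same strand. Strands drawn evenly at random would give convergent and divergent pairs equally often, and tandem pairs as often as both together. The shares over all pairs stood near that. Pairs under 50 kb apart had another make-up, with 10 of 107 convergent (9.35%) and 42 divergent (39.3%). Between 50 and 200 kb, 51 of 184 were convergent (27.7%) and 68 divergent (37.0%). Over 200 kb, 310 of 1084 were convergent (28.6%) and 253 divergent (23.3%). Divergent pairs therefore outnumbered convergent ones below 200 kb and the reverse held above. Regions are not replicates, so the shares are given with no test, and pairs that share a region are not independent.

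**Figure D4:**
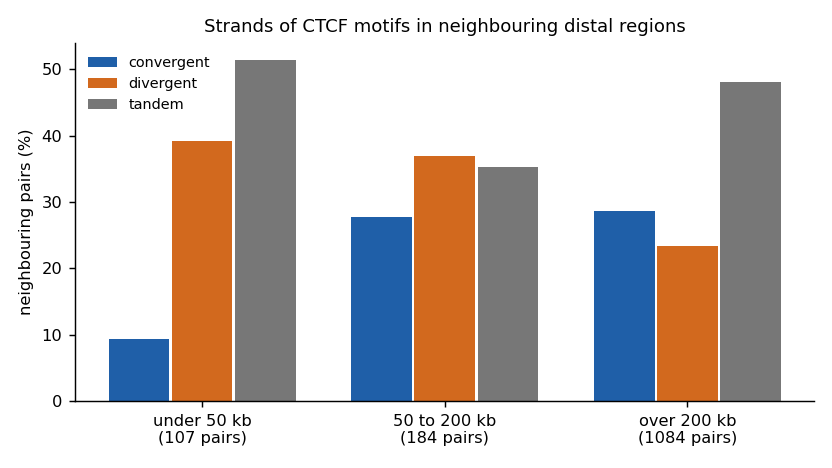
Share of neighbouring pairs of distal regions with a CTCF motif (vertical axis, percent) that were convergent (blue), divergent (orange) or tandem (grey), by the distance between the motifs. Convergent pairs make up 9.35% of 107 pairs under 50 kb and 28.6% of 1084 pairs over 200 kb.

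The 10 members of highest mean rank held none with the CTCF motif. Besides the mitochondrial matches they included chrX:143482972-143483146, an intergenic region of 175 bp near Pak3, a kinase of the p21-activated family, with the largest median fold enrichment of all members, 83.6. GC-rich regions near Gm15247 inside Mid1 (74.6%), near Zfp395 (73.6%) and near Gm49539 (72.1%) were also among them. The top places thus went mostly to the AT-rich mitochondrial copies and to GC-rich windows. The remaining 2 were chr7:30373241-30374143, 10928 bp from Lrfn3, and chr16:17222172-17222549, 11187 bp from Hic2. The last had 3 copies in the genome, and the region inside Mid1 had 2.

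Among members with the CTCF motif the highest, at chr7:38084489-38086219, lay 14398 bp from Ccne1, the cyclin E1 gene. Its rank ran from 98.9 to 99.9 over the 16 libraries. The next, at chr1:135752683-135753286, lay 12966 bp from Phlda3, a gene for a repressor of AKT signalling, with ranks from 97.2 to 99.99. The region near Fos, an immediate early gene, at chr12:85485512-85486510, ran from 94.99 to 98.7, and that near Tef, a clock-controlled transcription factor gene, at chr15:81831199-81831965, from 94.4 to 99.9. These regions were close to the top in every tissue and in both states.

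At the other end, the members of low mean rank included chr19:23159519-23160470, in an intron of Klf9, a glucocorticoid-responsive transcription factor gene. Its rank was 3.91 in fasting spleen and 82.1 in fasting heart. Another was chr12:44181260-44181591, 28550 bp from Dnajb9, a gene for a chaperone of the endoplasmic reticulum, which ranked 83.6 in fed liver and 12.3 in fed brown adipose. These members were open in every library by the q-value, yet in some libraries they stood low in the list.

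Tissues differed more than states in the ranks of members. The median absolute rank difference between the fed and fasting libraries of a tissue averaged 3.88 points (range 3.06 to 4.95 over tissues), against 7.99 for the average over all pairings of fed with fasting libraries. The observed pairing gave the lowest of 40320 values (one-sided exact permutation test, p = 2.48e-05, the least possible here, adjusted p = 1.74e-04 by Benjamini-Hochberg over 7 tests). All 8 same-tissue pairs differed less than any of the 112 other pairs of libraries, whose lowest value was 5.34. The greatest difference, 16.1, was between fed brown adipose and fed spleen, which also had the most and nearly the fewest background tags.

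By tissue mean, members most often ranked highest in spleen (1585), heart (1057) and liver (873), and lowest in brown adipose (1038), kidney (884) and muscle (838). The median rank of proximal regions was 93.8 fed and 93.6 fasting in spleen and 94.5 and 94.3 in heart. It was 92.4 and 91.3 in liver and 91.0 and 92.1 in brown adipose. Whether the order of tissues is particular to members was not tested. The range of a member's tissue means had a median of 25.96 points, against 11.8 for proximal regions. A tissue lay further from the mean of the 8 tissues in members than in proximal regions, by 3.53 points on average (positive in 8 of 8 tissues, SD 1.12, two-sided exact sign-flip permutation test, p = 0.00781, the least possible with 8 tissues, adjusted p = 0.0273). Ranks have an upper end, and proximal regions stand nearer to it. Each distance is also taken from a mean that holds all 8 tissues, so the 8 values are not independent, as the test takes them to be. The difference was smaller within a band of mean rank. Among regions of mean rank 70 to 90, 3174 members and 7441 proximal regions, the difference was 0.457 points (positive in 7 of 8 tissues, adjusted p = 0.0547 by the same exact test) and the median ranges were 25.96 and 24.4 points. Within this band, which does not make the ranks equal, a greater variation of members among tissues did not pass the threshold after adjustment. The median range was 22.7 points in members with the CTCF motif and 28.0 in the others. A range under 10 points was found in 6.95% of members with the motif and 9.25% of the others.

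The members with the widest ranges were low in 1 tissue rather than high in 1. The largest, at chr8:78742012-78743268, 45383 bp from Slc10a7, had ranks of 97.2 and 98.4 in fed and fasting heart and of 18.6 and 2.77 in spleen. A region in an intron of Cuedc1, chr11:88114743-88115527, ranked 95.4 and 91.6 in muscle and 1.05 and 14.5 in kidney. A region in an intron of Bicra, a chromatin remodelling subunit gene, chr7:16018404-16018902, ranked 97.9 and 98.7 in spleen and 15.3 and 13.2 in kidney. In each the low tissue was low in both states. A region with a range of the same size, chr10:29815979-29816151, had 23 copies in the genome and its values are uncertain for that reason.

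For each tissue, the member whose tissue mean lay furthest above the mean of the other 7 was also found, which is a description since the ranks chose it. In liver it was chr9:15541586-15542428, in an intron of Smco4, with 98.5 fed and 96.6 fasting, 40.5 points above the others. In muscle it was chr9:46072146-46072804, in an intron of Sik3, a salt-inducible kinase gene, with 91.0 and 95.2, 44.4 points above. In spleen it was chr7:121160259-121160587, in a coding exon of Otoa, with 95.003 and 93.3, 44.9 points above, although fed liver was at 93.7. At the liver region white adipose was also at 89.0 fed and 57.0 fasting, and spleen at 81.5 and 85.2. At the muscle region the next library, fed spleen, was at 80.8 and fasting spleen at 49.4.

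In heart it was chr17:65737628-65738100, in an intron of Rab31, a vesicle transport GTPase gene, with 91.8 and 86.5, 43.1 points above. In lung it was chr8:83874715-83876174, 24573 bp from Adgrl1, with 90.2 and 92.0, 38.3 points above. In kidney it was chr2:165787894-165788407, in an intron of Zmynd8, a chromatin reader gene, with 95.6 and 93.7, 37.1 points above. At the heart region lung was also at 77.7 fed and 80.9 fasting. At the lung region heart was at 82.0 and 72.1 and spleen at 70.1 and 78.1. The kidney region was also at 89.8 in fed white and 85.9 in fed brown adipose.

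The adipose regions were also high in several other tissues. In brown adipose the region was chr4:53337652-53338501, 102391 bp from Slc44a1, a choline transporter gene, with 93.8 and 96.4, 37.7 points above, with liver at 79.2 and 88.9, heart at 81.2 and 88.2 and white adipose at 75.2 and 88.1. In white adipose it was chr17:5261935-5262834, in an intron of Arid1b, a chromatin remodelling subunit gene, with 91.8 and 94.6, 31.3 points above. At the latter brown adipose was at 93.8 and 93.5, liver at 88.6 and 87.6 and muscle at 84.3 and 88.7.

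Fasting did not shift the ranks of members in a common direction. The median change, fasting minus fed, was 3.01 points in brown adipose, 1.95 in white adipose, 0.641 in heart and 0.104 in kidney, and −1.43 points in spleen, −1.48 in lung, −2.45 in muscle and −2.55 in liver. The mean over tissues was −0.275 points (SD 2.05, positive in 4 of 8, two-sided exact sign-flip permutation test, p = 0.711, adjusted p = 0.711). The change minus that of proximal regions was −0.288 points (SD 1.66, positive in 4 of 8, same exact test, p = 0.641, adjusted p = 0.711). The tissues with the greatest changes also differed between states in depth or list length. Background tags were 12.8 fed and 6.76 fasting in brown adipose, 10.02 and 5.87 in white adipose and 6.39 and 10.6 in muscle, and the liver lists held 239804 and 217821 regions; their part in the changes was not tested.

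Large changes were less frequent in members than in all regions open in both states of a tissue, and more frequent than in proximal regions open in all libraries, in every tissue and direction. In liver 341 members (7.66%) were more than 10 points higher in fasting and 761 (17.1%) lower, against 17.9% and 19.1% of all such regions and 5.54% and 9.07% of proximal regions. In brown adipose 861 (19.3%) were higher and 155 (3.48%) lower, against 29.7% and 6.89% of all and 8.71% and 2.06% of proximal regions. In white adipose the members numbered 742 (16.7%) and 269 (6.04%), against 38.2% and 10.6%. In these adipose tissues members that were higher outnumbered those that were lower. In muscle the shares of members were 4.29% and 15.3% against 14.8% and 23.9%, and in spleen 6.51% and 12.9% against 16.8% and 24.3%. In heart they were 11.3% and 9.54% against 16.1% and 17.4%, in lung 2.90% and 11.5% against 21.1% and 21.4%, and in kidney 9.45% and 5.28% against 19.3% and 15.8%. The members rank above most regions and below proximal ones, and the part of rank in these shares was not tested.

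Few members moved the same way in all 8 tissues. There were 51 that were higher in fasting in all 8 (1.15%, against 0.8% of all 23371 regions open in every library) and 45 that were lower (1.01%, against 0.693%). Both shares were slightly above this background, which includes the members. In proximal regions alone the shares were 0.719% and 0.618%, and these differences were not tested. The CTCF motif was in 1 of the 51 (1.96%) and in 20 of the 45 (44.4%), beside 31.3% of all members, and the difference was not tested.

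The largest mean rise among the 51, by 25.4 points, was at chr6:134556038-134556777, in an intron of Lrp6, the Wnt co-receptor gene. Its rank was 17.6 fed and 68.2 fasting in liver and 18.7 and 64.0 in spleen, but 77.5 and 81.5 in heart. The next were chr10:60262384-60262971, 15097 bp from Psap, a gene for a precursor of lysosomal activator proteins, with a mean rise of 15.4 points, and chr2:165935747-165936649, 37315 bp from Zmynd8, with 15.3. The rise near Psap was large in liver (39.1 to 75.2) and muscle (39.9 to 84.9) and small in lung (92.6 to 93.4).

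The largest mean falls among the 45 were at chr12:75656679-75656916, in an intron of Wdr89, at chr4:70307111-70307733, in an intron of Cdk5rap2, a centrosome gene, and at chr2:84855529-84856093, in an intron of Slc43a1, an amino acid transporter gene. The means were −13.9, −13.3 and −13.3 points. At the first, the rank in lung was 78.6 fed and 25.99 fasting and in liver 97.4 and 96.5. At the second, kidney was at 50.1 fed and 17.04 fasting, and at the third white adipose was at 63.9 and 26.4. The fall at the second exceeded 10 points in 6 of 8 tissues, while at the first it was greatest in lung. With 1 library for each state, none of these changes has a replicate check.

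The CTCF motif was set against rank and change of rank. The median rank of members with the motif minus that of the others was −1.20 points (SD 1.87, lower in 5 of 8, two-sided exact sign-flip permutation test, p = 0.133, adjusted p = 0.232). They were higher in spleen, at 90.5 against 88.2 in the fed library, and lower in brown adipose, at 73.4 against 77.2. The change with fasting was lower by 0.862 points in members with the motif (SD 0.801, lower in 7 of 8, same exact test, p = 0.0391), and after adjustment it did not pass the threshold (adjusted p = 0.0911). In muscle it was −3.74 points with the motif and −1.82 without, in lung −2.55 and −1.05, and in brown adipose 3.23 and 2.88. Taking the mean over members in place of the median, the difference in change was −1.57 points, lower in 8 of 8 tissues (adjusted p = 0.0182 by the same exact test), so the call depended on the summary used. With the stricter motif it was −0.383 points (adjusted p = 0.365, same exact test).

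**Figure D5:**
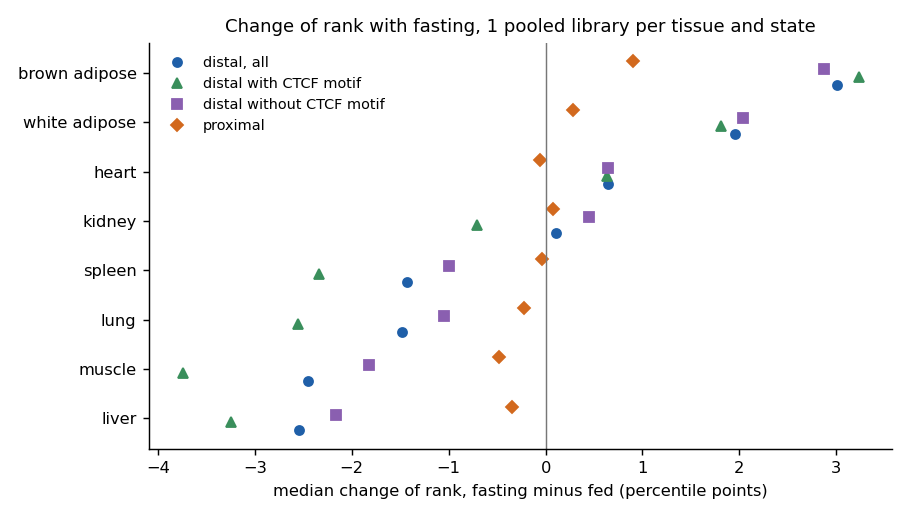
Median change of rank, fasting minus fed, in percentile points (horizontal axis) for each tissue, from 1 pooled library per tissue and state. Circles are all distal regions open in every library, triangles those with the CTCF motif, squares those without it and diamonds proximal regions. Circles run from −2.55 points in liver to 3.01 in brown adipose. Triangles run from −3.74 in muscle to 3.23 in brown adipose and lie left of squares in 7 of 8 tissues.

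Widths rose in some tissues and fell in others. The log2 ratio of the summed width at a member, fasting over fed, was −0.04 on average over tissues (SD 0.15, positive in 4 of 8 and negative in 3, two-sided exact sign-flip permutation test, p = 0.547, adjusted p = 0.711). In brown adipose the median width was 444 bp fed and 308 bp fasting and in white adipose 471 and 389 bp. Background tags were fewer in fasting in both, in lung, where the width was 476 and 443 bp, and slightly in kidney; their part in the widths was not tested. In liver it was 231 and 260 bp and in kidney 378 and 380 bp.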

How the data were processed

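ATAC-seq libraries of pooled tissue were processed by the authors with the Kundaje laboratory pipeline: adapter trimming, Bowtie2 alignment to GRCm38, removal of unmapped, duplicate and mitochondrial reads, Tn5 shift, and MACS2 peaks called in each library alone, kept by smallest p up to a fixed list length and filtered by a blacklist. Versions are not given in the sources used here. As deposited, fold enrichment is a ratio of tags to expected tags at a summit. The deposited −log10 p-value and −log10 q-value are those of the authors' MACS2 test. None is scaled between libraries, so ranks within a list were used.

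Rows of the same region were reduced to that of smallest p. Regions with −log10 q of at least 2 were merged at 1 bp overlap. In 8 libraries every deposited region passed this q-value, so the list length ended the set. Depth is not given, and background tags are the most frequent expected number solved from fold and p (89.2% to 100.0% of sampled rows solved within 0.001). Starts (132629 positions on chromosomes 1 to 19, X and Y) came from GENCODE vM21 and sequence from RefSeq GRCm38.p6. Motifs were sought 100 bp to each side of the strongest summit, and copies with BLAST 2.17.0 (90% identity over 150 bp; E of 1e-05 for mitochondrial DNA). Python 3.11.15, numpy 2.4.6, scipy 1.17.1 and pandas 2.3.3 were used, and the code was tested on simulated data. Tests were exact permutation tests over the 8 tissues, adjusted by Benjamini-Hochberg over 7 tests.

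Regions named are, leaving out chromosome 18, those of highest and lowest mean rank, the widest, those with the largest tissue ranges and tissue excesses, those with the largest changes in 1 direction in all tissues, the furthest from a start, those next to the 10 kb limit, the closest neighbours, the largest run, those nearest the listed loci and the mitochondrial matches. The members, motifs and lists were chosen with earlier results of these data known. A marker gene and a region that these rules name are not reported here.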

Additional observations from a re-analysis of the deposited data

How the results depend on the processing

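The number of members, 4453, was 1973 at a q-value of at most 1e-06, 1178 among the 50000 strongest regions of each list, 6885 over 5 kb and 2132 over 20 kb from a start, and 4500 to 5493 when both libraries of a tissue were left out, most without spleen. Other settings gave 3491 to 6622. The share with the CTCF motif, 31.3%, was 21.4% within 50 bp of the summit (1.63% of all distal regions), 9.97% with the stricter motif, 33.9% at q of at most 1e-06 and, in an alternative chosen after seeing the data, 36.8% with summits within 250 bp.

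The rank of members with the motif against those without, −1.20 points, was −1.83 at q of at most 1e-06, past the threshold (exact sign-flip permutation test, p = 0.00781), and turned to 0.552 by fold enrichment and 0.135 with means over members; leaving out a tissue gave −1.62 to −0.853. The difference in their change with fasting, −0.862, passed the threshold by fold enrichment (−1.12), by percentile within the q set (−1.25) and with means (−1.57); it was −0.383 with the stricter motif (adjusted p = 0.365 by the same exact test) and −0.490 at q of at most 1e-06 (adjusted p = 0.178), and leaving out a tissue gave −1.04 to −0.711, past the threshold without brown adipose. The greater distance of tissues from their mean, 3.53 points, was 0.457 among regions of mean rank 70 to 90, chosen after seeing the data, no longer past the threshold; leaving out a tissue gave 3.12 to 3.70, past the threshold only without brown adipose, since 7 tissues allow no exact p below 0.0156. Leaving out a tissue moved the change of all members with fasting between −0.744 and 0.0494, positive without liver (0.0494) or muscle (0.0352), and the log2 width ratio between −0.0598 and 0.00490, positive without brown adipose (0.00490). The comparison of pairings kept its direction and call under all 15 alternatives run, and the change of members against proximal regions passed the threshold under none of 16. Leaving out members with mitochondrial matches or copies, or those near a RefSeq start, both chosen after seeing the data, changed no call. The outlier check over 8 tissues found no value out of 11.

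No pairing by animal was possible, because each library was a pool of several mice and the labels give no replicate numbers. The tests of change with fasting paired both states within a tissue. List length and depth limit the weak end of each list.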
